A study of Mus musculus with 59 samples.

Results

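Members of the solute carrier (Slc) families 2, 4, 5, 6, 7, 9, 12, 13, 16, 22, 23 and 26 were followed in mouse kidney, with liver and VsWAT (a tissue named here as in the labels) beside it. All genes whose symbol carries one of these family numbers were taken, except the segment or tissue markers Slc34a1, Slc13a3, Slc5a2, Slc22a6, Slc12a1, Slc12a3 and Slc2a4, which left 150 of the 55273 features counted. Family 22 gave 25 of them, family 6 gave 22, family 7 gave 16 and family 16 gave 14. Among them 8 symbols were matched by name only and are adaptor, antisense or pseudogene entries, such as Slc9a3r1, Slc7a6os and Slc22a13b-ps.

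The mice were male, 12 weeks old and fed a high-fat (HFD) or low-fat (LFD) diet for 2 weeks. Every group shared the strain label, which starts from FVB.129P2 and adds a targeted allele, Cyp3a13tm1Ahs, with a deletion on chromosome 5, Del(5Cyp3a57-Cyp3a59)1Ahs, and beside them a transgene, Tg(APOE-CYP3A4)A1Ahs, named for human CYP3A4 and APOE sequences. The controls thus carry all of these too. The title names an RNA labelling called iTag, and libraries were labelled input or pull-down; the labels do not state which cells were tagged. Kidney mRNA had 5 input and 5 pull-down libraries (3 HFD and 2 LFD each), liver mRNA had 6 and 6 (3 per diet) and VsWAT total RNA had 6 (3 per diet).

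Slc proteins move sugars, amino acids, ions and organic molecules across membranes. In the kidney the proximal tubule reclaims glucose, amino acids, bicarbonate and sulphate from the filtrate through brush-border carriers and passes them to the blood through basolateral ones, and it secretes organic anions and cations through family 22. Later segments adjust potassium-chloride exit and osmolyte content, and intercalated cells of the collecting duct exchange bicarbonate for chloride.

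Total counts ranged from 7970076 to 19645443 over kidney input libraries, from 3741335 to 13713002 over kidney pull-down, from 3033702 to 4942158 over liver input, from 3389320 to 4426392 over liver pull-down and from 2556411 to 7940309 over VsWAT. The Slc genes took 1.27% to 1.33% of the counts in kidney input, 1.28% to 1.36% in kidney pull-down, 0.349% to 0.500% in liver input, 0.625% to 0.705% in liver pull-down and 0.102% to 0.175% in VsWAT. The tissue labels matched the hepatocyte and distal markers, given in CPM (counts scaled to a common library size) of the library total. The 12 hepatocyte genes summed to 12.1 to 19.4 CPM in kidney input and to 63050 to 109900 in liver input. The 12 loop, distal tubule and collecting duct genes summed to 2837 to 3269 and 0.880 to 10.9. Proximal tubule markers summed to 80780 to 96690 in kidney input and to 8578 to 13720 in liver input, so that set is not particular to kidney. A pair of kidney libraries stood apart from the others of their groups. Kidney input HFD 1 differed from HFD 2 and HFD 3 with a chi-square per degree of freedom of 91.4 and 92.3, against 6.19 between those 2. The same measure was 13.6 between HFD 1 and input LFD 1 and 42.6 between HFD 1 and input LFD 2, where HFD 2 and HFD 3 stood 100.2 to 117.2 from the LFD libraries. The measure grows with depth, which differed between these libraries. Over all features the library labelled input HFD 1 was thus closer to both low-fat libraries than to the other high-fat ones. Input LFD 1 and LFD 2 stood 46.9 from each other. The cause was not tested, and a wrong diet label cannot be told apart from other differences between libraries. Kidney input diet values are given with and without HFD 1. Kidney pull-down LFD 1 had 50230 CPM of proximal tubule markers where the other 4 pull-down libraries had 32110 to 33880. Of the 150 genes, 141 had a count in at least 1 kidney library, and 114 passed the filter on low counts in kidney, 55 in liver and 110 in the joint fit of both tissues.

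Upstream sequence is shown for 4 genes that the results below return to, each with the E-box letters CACGTG, which read the same on both strands. The stretches come from RefSeq (GRCm38.p6, the assembly of mm10), lie within 250 bases before the start used in its promoter table, run 5′ to 3′ on the gene's strand and have the motif in capitals.
Slc9a3: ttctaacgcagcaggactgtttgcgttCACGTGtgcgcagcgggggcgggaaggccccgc
Slc12a7: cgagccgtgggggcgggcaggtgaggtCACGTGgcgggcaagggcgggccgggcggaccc
Slc16a1: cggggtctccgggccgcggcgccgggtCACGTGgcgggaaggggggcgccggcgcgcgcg
Slc5a1: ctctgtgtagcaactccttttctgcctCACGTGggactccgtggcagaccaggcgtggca
They lie on the plus strand at chr13:74121299-74121358, chr13:73763632-73763691, chr3:104638437-104638496 and chr5:33104049-33104108. For Slc9a3 and Slc12a7 that start lies inside the gene's full RefSeq span. CACGTG was present in the 250 bases before the start of 13 of 108 Slc promoters (12%) and of 7.61% of 17491 protein-coding genes. Genes with the motif had unlike pull-down changes in kidney. Slc9a3, Slc12a7 and Slc16a1 rose, with values given below, and Slc16a12 fell (log2 change −0.57, adjusted p = 0.0279), a call that did not hold in every alternative. Slc5a1 (−0.30), Slc26a1 (0.16), Slc22a4 (0.20), Slc12a9 (0.62) and Slc12a5 (−0.71) did not pass, and the other 4 were not tested.

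The first comparison asked how far each gene was expressed in kidney against liver before the pull-down. In input libraries 70 of the 110 tested Slc genes were higher in kidney and 21 lower (edgeR, adjusted p under 0.05), that is 63.6% and 19.1%, where 33.5% and 29.4% of all 13724 tested genes were. Their median log2 difference was 2.07, and that of all tested genes 0.05. All proximal tubule lists together had 34 of 41 genes higher in kidney and 5 lower, and the intercalated cell list 4 of 6 higher and 0 lower. The widely expressed carriers split into 6 higher and 4 lower of 12. In the fits of single tissues 54 Slc genes were tested in both and 60 in kidney only. Many of the 110 thus passed the joint filter through their kidney counts, and for these a call higher in kidney was nearly fixed beforehand. The segment lists hold genes known from kidney, so their counts describe the lists and are not a test.

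**Figure D1:**
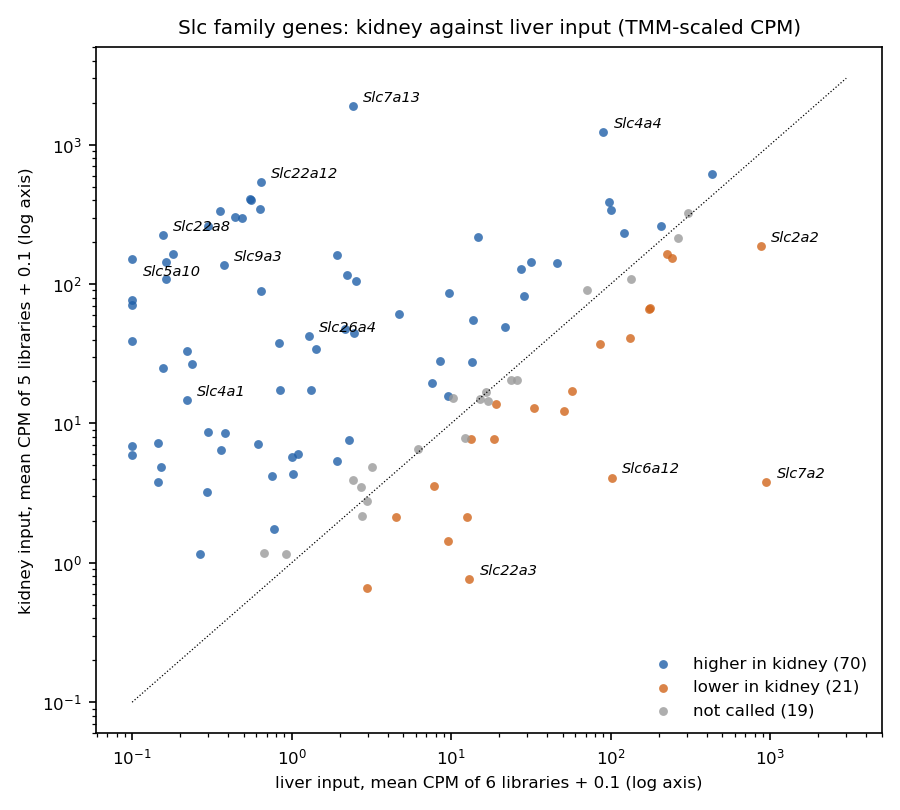
Mean TMM-scaled CPM of the 110 tested Slc genes in 6 liver input libraries (x) and 5 kidney input libraries (y), with 0.1 added and both axes on a log scale; the dotted line marks equal levels. The 70 genes called higher in kidney lie above the line, several at the left edge with no liver count, and the 21 called lower lie below it, led by Slc7a2.

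Among amino acid carriers of the proximal tubule, Slc7a13, a cystine and acidic amino acid carrier of the late proximal tubule (chr4:19818727-19842213), read 2090, 1880, 2030, 2130 and 1390 CPM in kidney input (HFD 1 to 3, then LFD 1 and 2, TMM scale of the joint fit). In liver input it read 0.314 to 6.30 CPM with a median of 1.93. The groups were far apart, with a log2 difference of 9.81 ± 0.36 (SE; adjusted p = 2.34e-16). Slc6a19, the main brush-border carrier of neutral amino acids, read 261, 287, 306, 320 and 334 CPM in kidney and 0 to 1.45 in liver (median 0.137), a log2 difference of 10.29 ± 0.31.

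Carriers of other solutes stood as far apart. Slc9a3, the sodium-proton exchanger of the brush border, read 158, 92.5, 89.6, 166 and 177 CPM in kidney and 0 to 1.01 in liver (log2 difference 10.44 ± 0.36). Slc13a1, a sodium-sulphate cotransporter, read 230 to 389 CPM in kidney and at most 0.970 in liver. The urate exchanger Slc22a12 read 299 to 809 CPM and at most 1.34, and the organic cation transporter Slc22a2 read 313 to 500 CPM and at most 1.45. None of these ranges overlapped.

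Several genes had almost no liver counts, so their ratios are bounds or carry wide counting intervals. Slc5a10, a sodium-coupled mannose and fructose carrier, had 11196 counts over the 5 kidney input libraries and 0 over the 6 liver ones, at least 965-fold higher in kidney when 3 counts over the liver group (0.164 CPM) are taken as the floor. Slc16a14, a monocarboxylate family member, was at least 466-fold higher by the same floor. Slc6a15, a carrier of branched-chain amino acids and proline best known from the nervous system, was at least 421-fold higher, and Slc22a13, a carrier of urate and nicotinate, at least 252-fold. The organic anion transporter Slc22a8 had 16213 kidney counts against 1 in liver, a ratio of 4190 with an exact 95% counting interval of 752 to 166000. These intervals and floors cover counting error only.

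The basolateral sodium-bicarbonate cotransporter Slc4a4 was present in both tissues and read 924 to 1540 CPM in kidney and 78.2 to 98.2 in liver, 13.8-fold apart. Of the intercalated cell genes, Slc26a4 (pendrin, an apical chloride-bicarbonate exchanger) read 39.7 to 46.2 CPM in kidney and 0.336 to 2.91 in liver, and Slc4a1 (the basolateral anion exchanger AE1, also the main erythrocyte one) read 11 to 16.2 CPM and 0 to 0.380. Erythroid markers summed to 682 to 1782 CPM of the library in kidney input and 334 to 1736 in liver input, and their part in the level of Slc4a1 was not tested.

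Of the genes lower in kidney, several are known from hepatocytes. Slc7a2, a cationic amino acid carrier, read 2.08 to 4.97 CPM in kidney and 563 to 1180 (median 921) in liver, a log2 difference of −7.97 ± 0.28 (adjusted p = 1.42e-16). Slc6a12, the betaine carrier, read 2.07 to 5.89 CPM against 72.9 to 132, and Slc22a3, an organic cation transporter, 0.359 to 0.908 against 8.73 to 16.6. The glucose carrier Slc2a2 serves both tissues and read 159 to 232 CPM in kidney and 811 to 962 in liver, 4.63-fold lower in kidney. The vitamin C carrier Slc23a1 differed by 1.89-fold, higher in kidney. Of the 91 calls, 8 did not hold under every alternative, among them Slc26a1 and Slc22a30.

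The second comparison asked which Slc transcripts gained or lost share in the kidney pull-down. Of the 114 tested genes 20 rose and 40 fell, 52.6% in all, against a background of 53% of 15023 tested genes (26.6% higher, 26.4% lower). The share called was close to that of all genes, while 17.5% of the Slc genes rose and 35.1% fell. With total counts in place of TMM factors 27 rose and 31 fell, against 33.8% and 19.3% of all genes, and the all-gene median moved from 0.01 to 0.23. Without both libraries that stood apart 22 rose and 44 fell of 119, against 58.5% of 16202 genes (28.5% higher, 30% lower). Median log2 change was −0.14 in the Slc genes and 0.01 in all genes. Family 22 had 11 of 21 genes fall and 1 rise, family 13 had 3 of 5 rise and 1 fall, and family 16 had 4 rise and 5 fall of 13. The family 13 rises include Slc13a2 and its overlapping antisense gene Slc13a2os, whose signals are not separable.

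**Figure D2:**
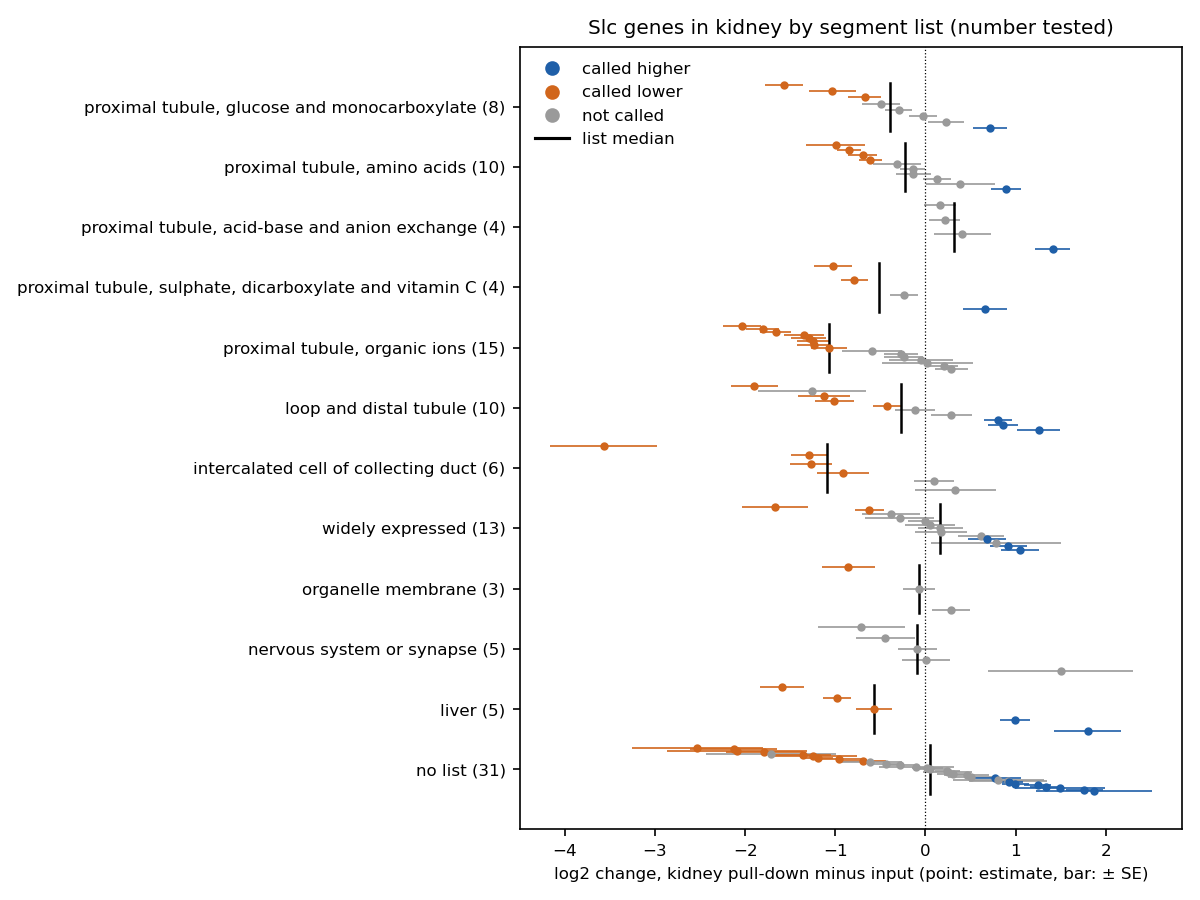
Log2 change between kidney pull-down and input (x) for each tested Slc gene, grouped by segment list (y, with the number tested); points are estimates, bars are ± SE and black lines are list medians. Called falls fill the left side of the organic ion and intercalated cell lists, while the acid-base list has no called fall.

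Marker genes of most cell types fell in the same libraries, and their part in the Slc changes was not tested. In the kidney pull-down 7 of 12 proximal tubule markers fell and 1 rose. Falls were called for 11 of 12 distal markers, 9 of 10 endothelial, 6 of 8 podocyte, 8 of 8 fibroblast and mural, 7 of 8 macrophage and 3 of 4 tested erythroid markers, and rises for 0 of these. Summed proximal tubule markers read 80780 to 96690 CPM of the library in input, against 32110 to 50230 in pull-down. That set also has counts in liver, so its sum is not particular to the segment. Summed distal markers read 2837 to 3269 and 962 to 1999, with no overlap. Since the labels do not state which cells were tagged, fewer tagged cells of a type and less RNA recovered per cell cannot be told apart.

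Of the 4 acid-base and anion exchangers of the proximal tubule 1 rose and 0 fell. Slc9a3 (chr13:74086255-74169442) read 176, 105, 101, 189 and 198 CPM in kidney input (HFD 1 to 3, then LFD 1 and 2, TMM scale of the kidney fit) and 403, 466, 489, 311 and 458 in pull-down. Every pull-down library lay above every input library, and the gene rose by 1.41 ± 0.19 on the log2 scale (adjusted p = 9.06e-05). A long non-coding gene, Gm41003, overlaps it by 9163 bases, and without a stated strand setting their reads cannot be told apart. Slc4a4 read 1050 to 1760 CPM in input and 1380 to 1840 in pull-down, overlapping ranges with a log2 change of 0.21 (95% interval −0.12 to 0.55, adjusted p = 0.307). Slc26a1 and Slc26a6, anion exchangers that carry sulphate and oxalate, changed by 0.16 and 0.41 and did not pass. Slc26a1 overlaps Idua by 8503 bases.

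In the organic ion list 8 of 15 fell, 0 rose and the median was −1.07. Slc22a19, an organic anion transporter, read 133, 109, 141, 136 and 89.4 CPM in input and 27.1, 13.1, 21.6, 47.9 and 35.6 in pull-down, a fall by 2.03 ± 0.21 on the log2 scale (adjusted p = 2.27e-05). Input and pull-down did not overlap. Slc22a22, a prostaglandin carrier known from mouse kidney, read 219 to 363 CPM in input and 77.8 to 121 in pull-down (log2 change −1.66 ± 0.17).

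The basolateral organic cation transporter Slc22a2 read 415, 566, 562, 357 and 352 CPM in input and 201, 119, 165, 239 and 164 in pull-down, 2.36-fold lower with no overlap. The urate and nicotinate carrier Slc22a13 fell 2.54-fold. The anion exchanger Slc22a8 (178 to 286 CPM in pull-down, log2 change −0.27, 95% interval −0.63 to 0.09) and the urate exchanger Slc22a12 (−0.24, −0.66 to 0.18) did not pass, nor did the carnitine carriers Slc22a4 and Slc22a5 (0.20 and 0.29). Leaving out both kidney libraries that stood apart brought Slc22a8 to −0.51 with an adjusted p of 0.0264. Slc22a19, Slc22a26, Slc22a28 and Slc22a30 are close relatives on chromosome 19 between positions 7673075 and 8405111, and how reads with several matches were counted is not given in the sources used here, so their single values are uncertain.

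**Figure D3:**
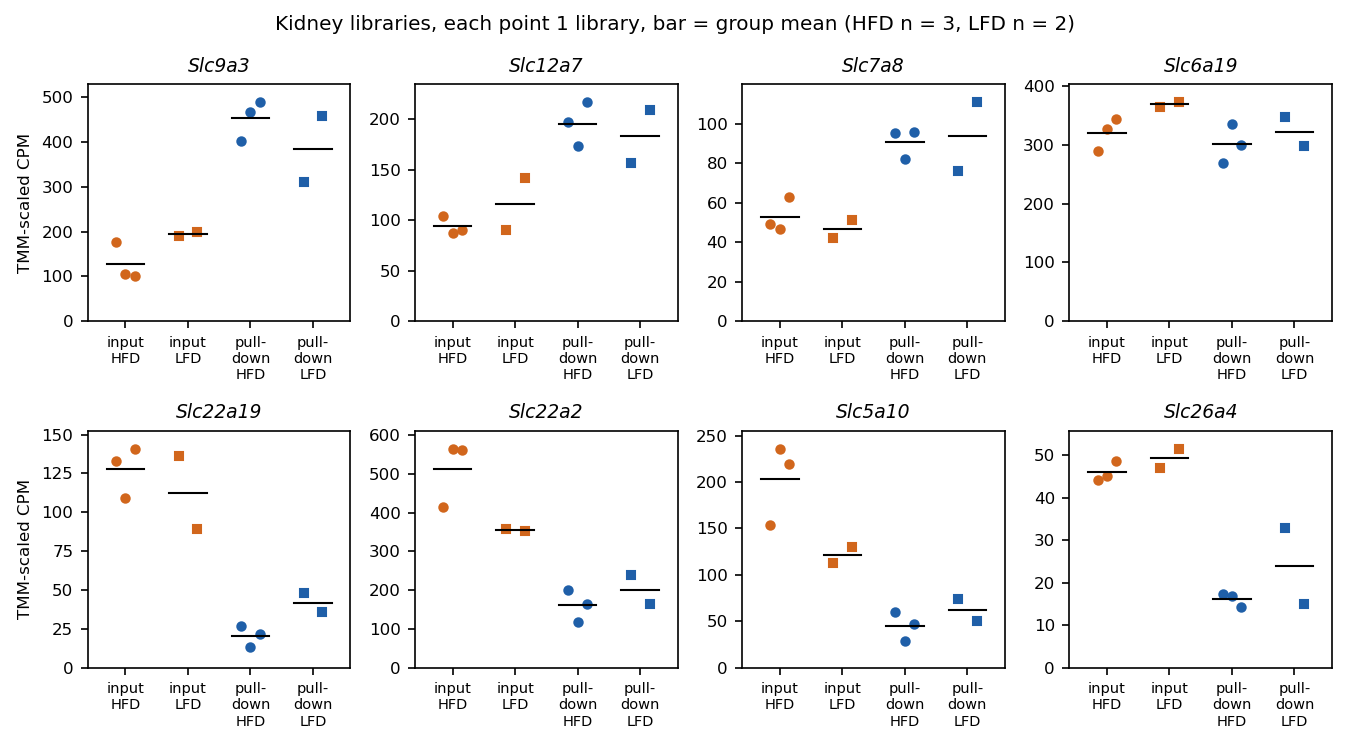
TMM-scaled CPM (y) of 8 Slc genes in each kidney library by fraction and diet (x; HFD high-fat, LFD low-fat); each point is 1 library, orange for input and blue for pull-down, and bars are group means. Slc9a3, Slc12a7 and Slc7a8 are higher in every pull-down library than in any input library, Slc6a19 overlaps, and the lower row is lower in every pull-down library.

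Of the 8 sugar and monocarboxylate carriers of the proximal tubule 3 fell and 1 rose. Slc5a10 read 154, 236, 219, 113 and 130 CPM in input and 59.7, 29.1, 46.8, 73.7 and 50.1 in pull-down, a fall by 1.57 ± 0.21 on the log2 scale; it overlaps Fam83g by 25893 bases. The fructose carrier Slc2a5 fell 1.60-fold, a call that ended with total-count scaling (adjusted p = 0.0565). The basolateral glucose carrier Slc2a2 read 179 to 264 CPM in input, against 248 to 407 in pull-down, and rose by 0.71 ± 0.19, a call that ended without input LFD 2 (0.49, adjusted p = 0.0673). The brush-border glucose carrier Slc5a1 (36.3 to 41.0 against 27.2 to 39.3 CPM) and the lactate carrier Slc5a12 (134 to 247 against 164 to 208) did not pass, the latter with a log2 change of −0.03 (95% interval −0.33 to 0.28).

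Of the 10 tested amino acid carriers 4 fell and 1 rose. Slc7a13 read 2320, 2150, 2280, 2440 and 1550 CPM in input and 1460, 1290, 1150, 1390 and 1250 in pull-down, 1.62-fold lower with no overlap. The cystine carrier Slc7a9, brush-border partner of rBAT, read 146 to 174 and 96.4 to 109 CPM, and Slc6a20b, of the imino acid carrier family, 342 to 424 and 182 to 243. Slc7a8, the basolateral neutral amino acid exchanger, was the one that rose, from 42.3 to 62.9 CPM up to 76.1 to 111, by 0.89 ± 0.16 on the log2 scale. Slc6a19 did not pass, with overlapping ranges of 290 to 373 and 269 to 347 CPM and a log2 change of −0.14 (95% interval −0.41 to 0.12).

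Among the remaining proximal carriers, Slc23a1, the apical vitamin C carrier, fell 1.73-fold, from 202 to 342 CPM down to 138 to 171, and its relative Slc23a3 fell 2.03-fold. Slc23a1 overlaps Paip2 by 12963 bases. Slc13a1 did not pass (log2 change −0.24). The citrate and dicarboxylate carrier Slc13a2 was called higher (0.66 ± 0.24, adjusted p = 0.0336), but the call ended without any one of input LFD 1 (0.40), pull-down HFD 1, pull-down HFD 3 and pull-down LFD 2. Its antisense neighbour Slc13a2os overlaps it by 8382 bases and rose by 1.76 ± 0.21, so with no strand setting given the 2 signals are not separable. Of neighbouring genes on chromosome 8, Slc7a6os rose by 1.33 ± 0.17 and Slc7a6, an exchanger of cationic and neutral amino acids with 3.23 to 6.40 CPM in input, fell by 1.67.

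Past the proximal tubule, the potassium-chloride cotransporter Slc12a7 read 104, 87.2, 90, 90.3 and 142 CPM in input and 197, 173, 217, 157 and 209 in pull-down. The groups did not overlap, and the log2 change was 0.86 ± 0.17 (adjusted p = 9.39e-04). The taurine carrier Slc6a6 rose from 316 to 439 CPM up to 562 to 823, while the myo-inositol carrier Slc5a3, also an osmolyte carrier, fell from 167 to 350 down to 96.8 to 175. All of these were called, and the list of 10 had 3 rises and 4 falls. Slc5a3 overlaps Mrps6 by 29138 bases, so with no strand setting given their reads cannot be told apart. The fall of the monocarboxylate carrier Slc16a7 was 3.73-fold.

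Intercalated cell genes fell in 4 of 6 cases. Slc26a4 (chr12:31519814-31560055) read 44.2, 45.2, 48.7, 47.1 and 51.6 CPM in input and 17.4, 16.8, 14.3, 32.9 and 15.1 in pull-down, a fall by 1.29 ± 0.21 on the log2 scale (adjusted p = 2.66e-04). The highest pull-down value was that of LFD 1, the library that stood apart. Slc4a1 read 12.5 to 18.4 and 3.01 to 8.98 CPM, while summed erythroid markers read 682 to 1782 CPM of the library in input and 101 to 277 in pull-down, whose part in that fall was not tested. Slc26a7, a chloride-bicarbonate exchanger, read 2.70 to 6.26 and 0 to 0.788, and Slc4a8, a sodium-driven exchanger, 4.31 to 7.28 and 1.43 to 3.62, the last losing its call with total-count scaling (adjusted p = 0.0594) and without input HFD 2. Slc4a9, the anion exchanger AE4, read 2.95 to 27.2 CPM in input and did not pass.

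Of genes in no segment list, the carnitine and creatine carrier Slc16a9 read 98.2 to 167 CPM in input and 276 to 392 in pull-down, a rise of 1.25 ± 0.15 on the log2 scale, and Slc16a14 rose from 72.8 to 106 up to 142 to 188. Among widely expressed carriers, the lactate carrier Slc16a1 rose (0.92 ± 0.20), as did the sulphate carrier Slc26a2 (1.05 ± 0.21), while the glucose carrier Slc2a1 fell (−0.62 ± 0.16). In all, 45 of the 60 calls held under every alternative. The scaffold gene Slc9a3r1, which anchors brush-border carriers, did not pass (0.25).

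Partner genes, listed apart from the Slc members, moved in both directions. Of 34 transport partners and other tubule transporters 22 fell and 2 rose, with Cltrn (a chaperone of Slc6a19) at −1.75, Fxyd2 (a subunit of the sodium pump) at −1.40 and the scaffold Pdzk1 at 1.95. Of 14 tested regulators of transport 7 rose and 2 fell. The kinase Sgk3 rose by 1.53 and the ubiquitin ligase Nedd4l by 0.89, while the kinase Stk39 fell by 1.51.

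The pull-down change was then set beside that of liver. In liver 15 of 55 tested Slc genes rose and 23 fell, 69.1%, against 73.8% of 10865 genes (37.7% higher, 36.1% lower). Markers moved there too, and their part was not tested: 10 of 12 hepatocyte markers fell and 2 rose, and falls were called for all tested endothelial (9), macrophage (8), fibroblast and mural (5) and erythroid (4) markers. Summed endothelial markers read 167 to 259 CPM of the library in liver input and 49 to 79.8 in pull-down, and macrophage markers 89.2 to 160 and 31.6 to 60.4. Both tissues tested 54 of the genes. Rises were called in kidney and in liver for Slc2a2, Slc6a6, Slc16a6, Slc22a23, Slc23a2 and Slc7a6os, and falls in kidney and in liver for 13 genes. Calls went in opposite directions for 7, with 2 higher in kidney pull-down and lower in liver pull-down, and 5 the other way round. Of all tested genes 53% were called in kidney and 73.8% in liver. The share of all genes with shared or opposite calls is not given here, so these counts have no background beside them. In the joint fit the change differed between tissues for 21 of 110 Slc genes, 14 higher in kidney and 7 lower (19.1%), against 12.7% of 13724 genes (8.94% higher, 3.75% lower). That split was 8 and 8 with total-count scaling, against 4.72% and 6.19% of genes, which moved the all-gene median of the difference from 0.19 to 0.01. Without kidney input LFD 1 it was 6 and 7, against 8.01% of 14344 genes (3.03% higher, 4.98% lower) and an all-gene median of −0.06. Without liver input LFD 2 it was 5 and 8, against 10.8% of 13594 genes (3.67% higher, 7.09% lower) and a median of −0.07. The joint fit held 110 Slc genes, of which 54 were tested in each tissue singly. Some of the others had almost no liver counts and standard errors of up to 7866 on the log2 scale (Slc26a7). No difference could be called for these. Differences below are as fitted, with the median of 0.19 not taken off.

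**Figure D4:**
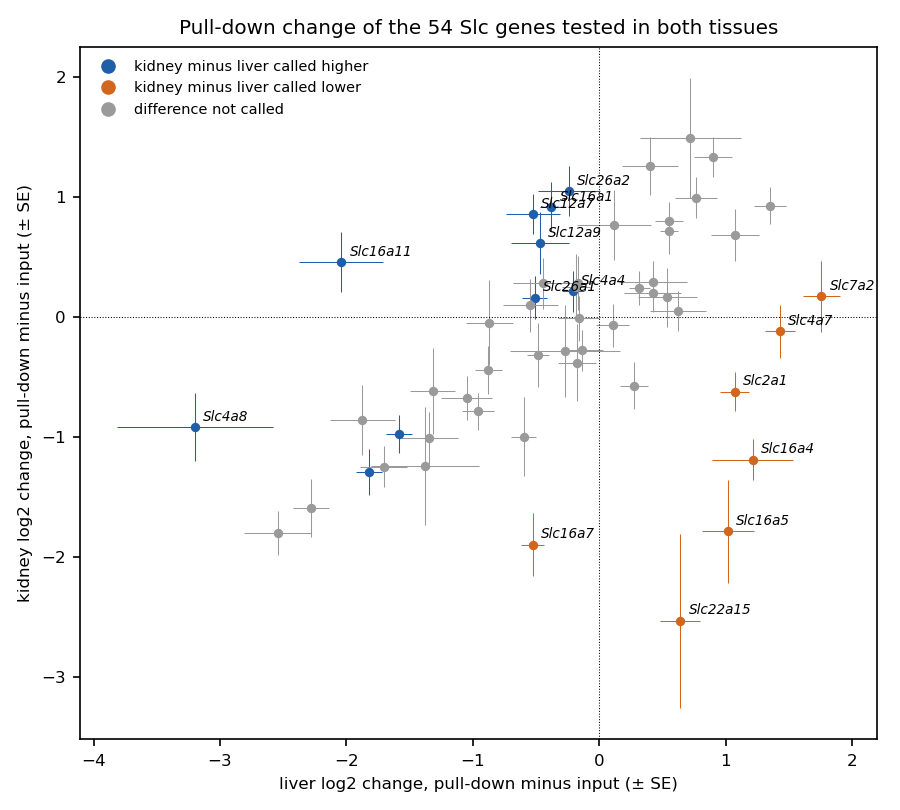
Log2 change between pull-down and input in liver (x) and kidney (y) for the 54 Slc genes tested in both tissues; points are estimates, bars are ± SE, and colours mark the test of the difference. Slc2a1, Slc16a4, Slc16a5 and Slc22a15 lie at lower right, rising in liver and falling in kidney, and Slc12a7 and Slc16a1 lie at upper left.

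Slc2a1 read 23.1 to 38.0 CPM in kidney input and 15.5 to 22.5 in kidney pull-down, but 8.69 to 15.1 in liver input and 18.3 to 28.6 in liver pull-down (each tissue on its own TMM scale). The ranges separated in opposite directions, and the difference, kidney minus liver, was −1.53 ± 0.18 on the log2 scale (adjusted p = 1.3e-05), or −1.73 from the all-gene median. Slc16a1 went the other way, 15 to 25.4 CPM in kidney input and 24.4 to 43.7 in pull-down, against 36.1 to 68.9 and 30.5 to 43.8 in liver, a difference of 1.46 ± 0.22, or 1.26 from the median.

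Slc12a7 differed by 1.55 ± 0.29; its liver fall alone (−0.53, adjusted p = 0.0392) lost its call in 13 of 19 alternatives, with total-count scaling at an adjusted p of 0.28. Slc7a2, the liver-enriched cationic amino acid carrier, rose in liver from 488 to 1000 CPM up to 2440 to 3090 and did not pass in kidney at 2.37 to 7.40 CPM in any library, a difference of −1.42 ± 0.30. The sodium-bicarbonate cotransporter Slc4a7 rose in liver by 1.43 and changed by −0.12 in kidney, a difference of −1.39 ± 0.25. In the monocarboxylate family, Slc16a4 and Slc16a5 fell in kidney (−1.19 and −1.79) and rose in liver (1.21 and 1.02). Slc16a4 overlaps Rbm15 by 6605 bases. The 7 genes named here with their difference or with opposite calls kept the call of a difference in every alternative run.

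The third comparison asked whether diet changed these genes. With all kidney libraries edgeR called 0 of 114 Slc genes for diet in kidney input, where 0% of all tested genes were called; 21 had an unadjusted p under 0.05, and DESeq2 called 2. In kidney pull-down it called 0 (7 unadjusted, DESeq2 0), and for the difference between the diet changes of pull-down and input 0 (16 unadjusted, DESeq2 0). The unadjusted and DESeq2 counts stand without the share of all genes, so they cannot be read against a background. The input result depended on the library that stood apart. Without input HFD 1, 11 Slc genes were higher on the high-fat diet and 15 lower of 111, against 17.8% of 14224 genes (9.12% higher, 8.63% lower). The diet change then differed between pull-down and input for 10 of 111 (4 higher and 6 lower), against 9.82% of genes (4.32% and 5.5%).

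Library values are given for genes picked from those called without HFD 1, so the place of HFD 1 in them is not separate evidence. Slc7a7, the basolateral exchanger of cationic amino acids, read 59.1, 15.1 and 14.1 CPM in input HFD 1 to 3 and 52.8 and 125 in LFD 1 and 2; its log2 change was −1.61 (adjusted p = 0.172) with all libraries and −2.62 (5.1e-04) without HFD 1. Slc22a12 read 454, 922 and 889 against 341 and 414, and Slc16a11, of the monocarboxylate family, 11.9, 30.0 and 27.3 against 6.54 and 9.52. In each of these genes HFD 1 lay nearer to LFD 1 than to HFD 2 or HFD 3. Slc9a3 read 176, 105 and 101 against 189 and 198. With all libraries and without HFD 1 the log2 change of Slc22a12 was 0.998 and 1.258 (edgeR adjusted p = 0.166 and 0.00427). That of Slc16a11 was 1.509 and 1.811 (0.129 and 7.09e-04), and that of Slc9a3 −0.606 and −0.914 (0.258 and 0.012). In pull-down Slc7a7 read 72.8, 50 and 66 on HFD and 86.8 and 56.1 on LFD, with overlap.

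**Figure D5:**
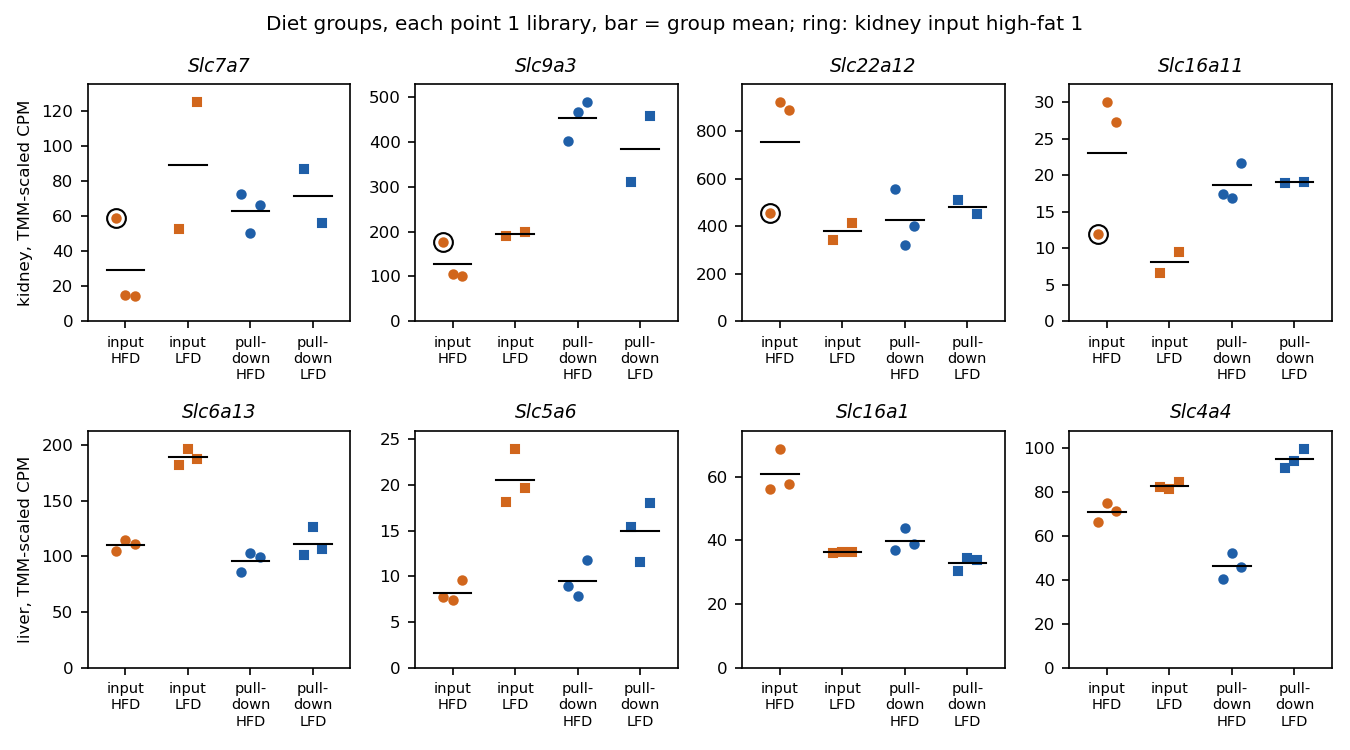
TMM-scaled CPM (y) by fraction and diet (x) for 4 Slc genes in kidney (top row) and 4 in liver (bottom row); each point is 1 library, orange for input and blue for pull-down, bars are group means and rings mark kidney input HFD 1. The 4 kidney genes were picked from those called without the ringed library, which in all of them lies nearer to input LFD 1 than to the other high-fat input libraries. In liver input Slc6a13, Slc5a6 and Slc16a1 separate by diet.

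Liver showed called diet changes in both fractions. In liver input 5 of 55 Slc genes were higher on the high-fat diet and 15 lower (36.4%), against 22.5% of 10865 genes (8.87% higher, 13.6% lower). Leaving out input LFD 1, which differed from the other LFD libraries, gave 8 and 23 of 59, against 42.2% of 11213 genes (21.9% higher, 20.2% lower). Summing the closest input pairs gave 2 and 5 of 55, against 9.52% of 11095 genes (4.49% higher, 5.03% lower). Those pairs, HFD 1 with HFD 3 and LFD 2 with LFD 3, differed by 1.18 and 1.13 in chi-square per degree of freedom. That is close to counting error alone, where other input pairs of a diet stood 4.47 to 62.5 apart. If each pair is a sample counted again, which the labels do not say, the liver input standard errors and p-values are too small. Markers separated by diet in the same libraries, and their part was not tested. Summed hepatocyte markers read 63050 to 70330 CPM of the library on HFD and 99300 to 109900 on LFD, macrophage markers 89.2 to 105 and 151 to 160, and endothelial markers 167 to 170 and 229 to 259. Of the single markers 4 of 12 hepatocyte, 2 of 8 macrophage and 1 of 9 endothelial ones were called lower on HFD and 0 higher. The GABA and taurine carrier Slc6a13 read 105, 115 and 111 CPM on HFD and 182, 197 and 188 on LFD (log2 change −0.78 ± 0.12, adjusted p = 9.45e-04). Slc6a6, the taurine carrier, read 57.9, 68.0 and 55.1 against 136, 100 and 96.5 (−0.87 ± 0.16).

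Slc16a1 was one of the 5 that were higher, at 56.3, 68.9 and 57.6 CPM on HFD and 36.1, 36.5 and 36.4 on LFD (0.74 ± 0.13). Slc12a2, the sodium-potassium-chloride cotransporter, read 29.3, 33.2 and 28.2 against 14.3, 15.8 and 18.1; with the closest pairs summed its adjusted p was 0.0534. Slc12a9, of the cation-chloride family, fell by 1.94 ± 0.31 on the log2 scale, from 10.9, 21.0 and 17.5 CPM on LFD to 2.90, 4.25 and 5.56 on HFD. In the kidney input of all libraries none of these genes passed. Without kidney input HFD 1 edgeR called only Slc6a13 of them, there higher on the high-fat diet (log2 change 1.145, adjusted p = 0.0175).

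In liver pull-down 1 Slc gene was higher on the high-fat diet and 4 lower of 55, against 5.95% of genes (2.85% higher, 3.1% lower); with total-count scaling 2 and 3. Slc4a4 read 40.4, 52.1 and 45.9 CPM on HFD and 90.6, 94.1 and 99.6 on LFD, a fall by 1.04 ± 0.12 (adjusted p = 3.28e-04), where in liver input the values were 66.3, 74.9 and 71.4 against 81.9, 81.0 and 84.4. Slc2a2 read 906, 858 and 917 on HFD and 1310, 1270 and 1420 on LFD in pull-down (−0.58 ± 0.10); with total-count scaling the adjusted p was 0.0791. Slc16a7 fell by 0.79 ± 0.13.

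The multivitamin carrier Slc5a6, which moves biotin and pantothenate, was lower on the high-fat diet in liver input and in VsWAT. Liver input read 7.73, 7.37 and 9.56 CPM on HFD and 18.1, 24.0 and 19.7 on LFD (log2 change −1.32 ± 0.23, adjusted p = 0.00189). VsWAT total RNA read 7.71, 5.82 and 4.53 on HFD and 21.6, 17.2 and 31.1 on LFD (−1.91 ± 0.28, adjusted p = 0.036), where it was the only one of 57 tested Slc genes called and 0.278% of 12248 genes were (0.0816% higher, 0.196% lower); total-count scaling gave 1 higher and 2 lower. The VsWAT call ended without any one of the 3 HFD libraries (adjusted p = 0.104 to 0.233). Slc5a6 overlaps Atraid by 285 bases. In VsWAT the fructose carrier Slc2a5 had 0 counts on HFD and 4.75, 9.97 and 21.9 CPM (200 counts) on LFD, at least 55.7-fold lower by a floor of 3 counts over the HFD group; it was not called by edgeR (adjusted p = 0.072) and was called by DESeq2 (adjusted p = 1.52e-07), the adjusted p running from 6.04e-35 to 0.3 over all alternatives. Liver input of Slc2a5 read 6.44, 7.09 and 8.89 CPM on HFD and 18.5, 16.5 and 12.1 on LFD, a call (log2 change −1.05, adjusted p = 0.0148) that ended in 4 alternatives.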

How the data were processed

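The authors deposited raw counts per feature, 1 file per library. STAR, HTSeq and the mm10 build are named in the submitters' processing notes; no version, annotation or strand setting is given in the sources used here. Tissue RNA was extracted with NucleoZOL from frozen tissue and libraries were made with a CATS small RNA kit, per the labels' protocols. Of 55273 features, 54838 were Ensembl genes, and gene coordinates are those of RefSeq for GRCm38.p6. Overlaps with neighbouring genes are given for some of the named genes and occur at others as well.

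Differences were tested with the quasi-likelihood method of edgeR 4.0.16 in R 4.3.3 with limma 3.58.1. Kidney, liver, both tissues jointly and VsWAT each had their own fit over all features, after TMM scaling and a filter on low counts (filterByExpr, at least 10 counts in a group's libraries and 15 in total). P-values were adjusted by Benjamini and Hochberg's method across every feature tested, and calls were made at 0.05. The standard error is the log2 change divided by the square root of F. The 95% intervals of log2 changes take a normal quantile times that standard error. They are thus narrower than the F tests would give, and a call rests on the adjusted p alone. Pull-down and tissue contrasts average over diets. CPM is relative to the TMM-scaled total of tested counts unless said to be of the library. Levels were not compared between genes, since no transcript lengths were used. The code was tested on simulated data.

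Alternatives were RLE and total-count scaling, no filter and a filter of 50 counts, DESeq2 1.42.0, fits of the compared groups alone, a replicate block and leaving out each library; where this left 1 library in a group, its spread was taken from the other groups. Leaving out both kidney libraries that stood apart, and summing the closest liver input pairs (chi-square per degree of freedom 1.13 and 1.18), were chosen after seeing the data. A few genes are counted but not reported here by name. Members, lists and contrasts were chosen with earlier results of these data known. Named genes are up to 4 called rises and 4 called falls per list and contrast, the smallest p values where none was called, and 15 genes fixed by name; Slc12a9, Slc16a4, Slc16a5, Slc16a9, Slc16a14, Slc9a3r1, Slc5a6, Slc2a5 in VsWAT, the genes of the promoter stretches, the kidney genes named without HFD 1 and those shown for their overlaps were picked once their values were known. Whether the libraries of 1 group are from different mice is not in the labels; if they are not, the p-values reflect technical spread only.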

Additional observations from a re-analysis of the deposited data

Results flagged for a closer look

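The genes below were set apart because the test of the difference in pull-down change between kidney and liver passed in the joint edgeR fit (log2, kidney minus liver; all-gene median 0.19). Of the 21 genes 19 are given. In the monocarboxylate family Slc16a9 stood at 2.84, Slc16a11 at 2.67, Slc16a1 at 1.46, Slc16a7 at −1.21, Slc16a4 at −2.25 and Slc16a5 at −2.68. Amino acid carriers were Slc7a8 at 2.64 and Slc7a2 at −1.42. Bicarbonate and anion carriers were Slc4a8 at 2.51, Slc26a6 at 2.06, Slc26a2 at 1.46, Slc26a1 at 0.83, Slc4a4 at 0.58 and Slc4a7 at −1.39. Cation-chloride family members were Slc12a7 at 1.55 and Slc12a9 at 1.24, and the glucose carrier Slc2a1 stood at −1.53. In the organic ion family Slc22a29 stood at 2.27 and Slc22a15 at −3.03.

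Calls that did not hold in every alternative included Slc12a9, Slc22a29, Slc26a1, Slc26a2, Slc26a6, Slc4a4 and Slc4a8. Slc7a8, Slc16a9, Slc22a29 and Slc26a6 were under the filter of the liver fit, with 43, 37, 48 and 43 counts over all liver input libraries, so their liver side rests on few counts.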

How the results depend on the processing

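Counts below are Slc genes called, given without the share of all genes, so they show only how the counts moved. For kidney against liver input, kidney pull-down, liver pull-down and diet in kidney pull-down, every alternative stayed within 1.5 times the main count; leaving out each library in turn gave 88 to 92, 50 to 63, 35 to 43 and 0. Diet in kidney input moved from 0 to 2 with DESeq2, 9 without the filter, 29 without both libraries that stood apart and 0 to 26 over single libraries left out (26 without input HFD 1); its difference between fractions moved to 4 without the filter, 6 without both libraries and 0 to 10 over single libraries. Diet in liver input moved from 20 to 7 with the closest pairs summed, 12 with the compared groups alone and 11 to 31 over single libraries (12 without input HFD 1, 11 without HFD 2, 31 without LFD 1). Diet in liver pull-down moved from 5 to 12 with the compared groups alone, and to 4 to 5 over single libraries. VsWAT moved from 1 to 3 with DESeq2, 8 without the filter, 3 with total counts and 0 to 2 over single libraries. The difference between tissues ranged from 13 to 30 over single libraries; leaving out 1 of most liver or kidney input libraries turned the all-gene median to between −0.10 and −0.06. The cause was not tested.

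Changes that did not pass and turned sign were Slc5a12 in kidney pull-down (0.013 with the stricter filter, 0.196 with total counts, −0.171 to 0.072 over single libraries), Slc6a19 (0.077 with total counts), Slc4a4 (−0.009 to 0.334 over single libraries, below 0 without input LFD 2) and Slc4a9 (−0.061 to 1.136, below 0 without input LFD 1); Slc4a4 in liver pull-down, called at −0.21, was 0.037 with total counts.

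Shared replicate numbers were not taken as pairing. Deviations from group means correlated at −0.2118 to 0.1811 between input and pull-down of the same number. Across diets the same number gave 0.2574 and 0.3066 in kidney input and −0.305 to 0.1586 in liver input. It gave 0.0501 and −0.0184 in kidney pull-down, −0.0364 to 0.0952 in VsWAT and 0.0996 to 0.1148 in liver pull-down. In liver pull-down every library correlated best with its own number, so pairing across diets there is not settled. With the replicate block liver pull-down diet gave 3 calls, VsWAT 2 and kidney pull-down 51.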
